A study of Bos taurus with 46 samples.

Results

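Described here are 10 genes that mark natural killer (NK) cells and cytotoxic T cells or carry out their killing function, out of 30675 genes in the gene count table. All 10 were present with at least 13 reads in each of the 46 libraries. Of these, 4 encode surface receptors (NCR1, KLRK1, KLRD1 and KLRF1), 4 belong to the cytotoxic granule (PRF1, GZMA, GZMK and NKG7), and 2 encode T-box transcription factors (EOMES and TBX21). The rule takes them by name and uses no measured value.

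NK cells and cytotoxic T cells kill infected, stressed or foreign cells. Activating receptors recognise ligands on the target, and granules are then released that hold a pore-forming protein and serine proteases which enter the target and start its death. EOMES and TBX21 (T-bet) direct the development of these cells and the transcription of their effector genes, and NCR1, the receptor NKp46, is the usual surface marker of bovine NK cells. In pregnancy these cells are of interest because the conceptus is partly foreign to its dam.

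Maternal white blood cells were profiled by RNA sequencing in Angus crossbred heifers of breeding age on days 55 and 105 of pregnancy (D55 and D105), with the same 23 animals on both days. By artificial insemination (AI) 8 heifers conceived, and 15 received in vitro produced (IVP) blastocysts, in pairs, made from Bos taurus taurus oocytes and the semen of 1 Bos taurus indicus bull. The IVP heifers were divided by the fetus at D105 into 6 with fetuses of normal weight (IVP-Normal) and 9 with a fetus overgrown against the AI fetuses of its sex, the defining sign of large offspring syndrome (IVP-LOS). Heifers 604 and 664, both IVP-LOS, carried the 2 largest fetuses. The number of fetuses in each dam is not in the labels and was not modelled. Per the paper, each AI dam carried 1 fetus, while some dams of both IVP groups, heifer 604 among them, carried 2. Fetal number therefore differs between AI and IVP.

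The libraries came from the leukocyte layer of tail blood after red cell lysis, and held 18692653 to 24502012 reads on genes. Transcripts of every leukocyte class were present: summed over each marker list, T cell markers lay between 986.9 and 2382.5 CPM, B cell markers between 1967.6 and 7628.8, monocyte markers between 219.2 and 6356.8, and neutrophil markers between 572.2 and 14098.9. CPM are reads of a gene per 1000000 reads on genes, with library sizes scaled by the trimmed mean of M values (TMM). The labels name a library set, which was New for all D55 libraries and for IVP-Normal on D105, and BACKUP for the 17 AI and IVP-LOS libraries of D105. Day and library set therefore cannot be told apart in AI and IVP-LOS, and IVP-Normal gives the day comparison within 1 set. Blood was collected over several seasons, and the season of each library is not in the labels and was not modelled. A caption of the paper's clustering figure places D55 collection in winter and D105 collection in summer. Season may therefore run with day in each group, IVP-Normal included. In whole leukocytes, fewer cells of a type and less RNA per cell cannot be told apart either.

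From D55 to D105 the cytotoxic genes tended downward: 176 of 230 gene and heifer pairs were lower on D105, namely 66 of 80 in AI, 44 of 60 in IVP-Normal and 66 of 90 in IVP-LOS. The pairs share heifers, and many of the genes vary together, so these counts describe and are not independent observations. No such share was taken over all genes, here or for the counts of heifers per gene below. In the fits, 10, 8 and 10 of the 10 genes had a log2 fold change below 0, as had 55.3%, 56.1% and 47.7% of all genes. Without a term for the heifer, none of the 10 genes passed an adjusted p (false discovery rate, FDR) of 0.05 in any single group by the edgeR quasi-likelihood test, beside 9.95% of all genes in AI, 2.45% in IVP-Normal and 0.251% in IVP-LOS. At an unadjusted p under 0.05 there were 2 of the 10 in AI, 2 in IVP-Normal and 0 in IVP-LOS, beside 22.6%, 13.3% and 12.6% of all genes. DESeq2 called 1, 2 and 0 of the 10, beside 1966 and 748 of 15248 genes and 336 of 15163. The edgeR likelihood ratio test called 1, 0 and 0, beside 1601, 613 and 227 of the same genes. In AI 1100 genes rose and 417 fell by the quasi-likelihood test, and with upper-quartile scaling 983 and 692, when TBX21 passed too (-0.53, adjusted p = 0.0403). In IVP-LOS 30 rose and 8 fell, and with that scaling 27 and 13. With each heifer compared with herself (heifer as a block), 4 genes fell in AI (GZMK, KLRD1, NKG7 and TBX21; 6.89% of all genes fell in that fit), 2 fell in IVP-Normal (GZMA and TBX21; 1.01%) and 0 passed in IVP-LOS, where 1.07% of all genes passed in either direction and 2 of the 10 had an unadjusted p under 0.05 (18.2% of all genes). The genes of each role are given in turn.

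**Figure D1:**
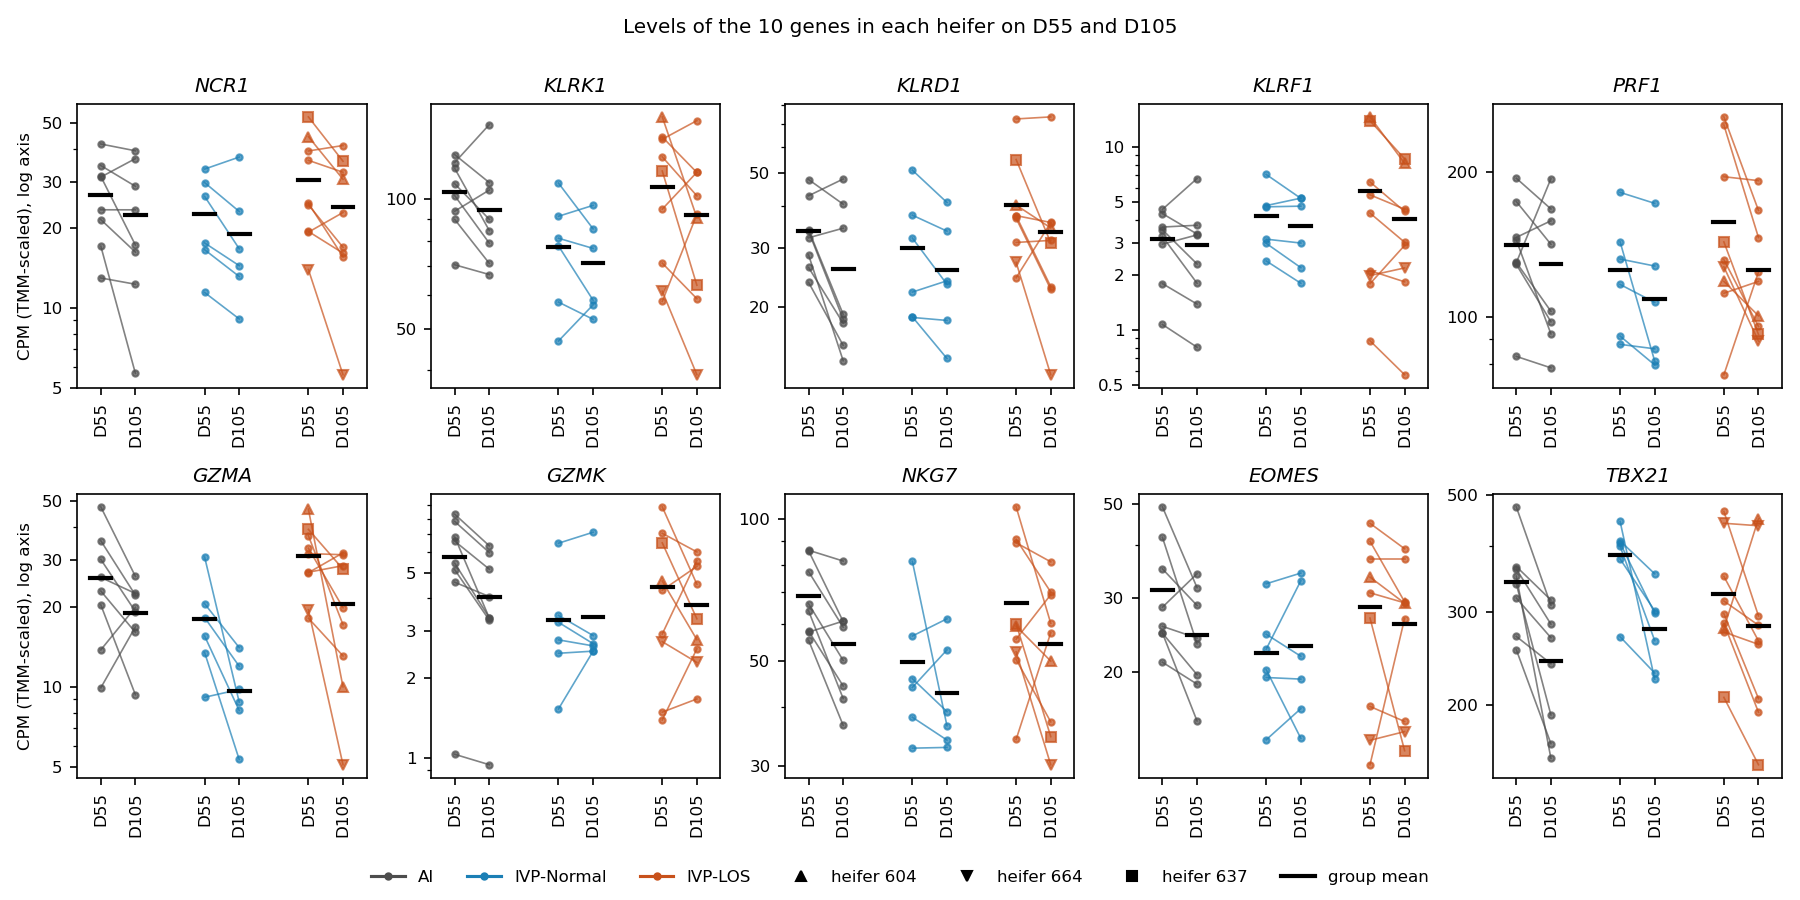
Level of each of the 10 genes (CPM, log axis) in every heifer on D55 and D105, by group; lines join the 2 libraries of a heifer, black bars are group means, and heifers 604, 664 and 637 have their own symbols. The lines of TBX21 fall in 22 of 23 heifers, while those of KLRF1 are spread over heifers from under 1 to 14.6 CPM and fall in 16 of 23.

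Among the receptors, KLRD1 (CD94, which pairs with NKG2 chains to read MHC class I) was the one called lower on D105 in a single group. In AI, KLRD1 ranged from 23.7 to 48.0 CPM on D55 (median 32.9) and from 13.8 to 48.1 on D105 (median 18.7). It ranged from 18.6 to 51.1 CPM (median 27.1) and then 14.1 to 41.0 (median 23.7) in IVP-Normal, and from 24.4 to 72.7 (median 37.4) and then 12.6 to 73.7 (median 31.6) in IVP-LOS. The days overlapped in each group, and KLRD1 was lower on D105 in 17 of 23 heifers. The log2 fold change in AI was -0.48 ± 0.13 (SE) with the heifer block (adjusted p = 0.031) and -0.37 ± 0.25 without it (adjusted p = 0.418). When each AI heifer was left out of the blocked fit in turn, KLRD1 stayed below the threshold in 3 of 8 fits and lost it without 517, 533, 606, 609 or 648 (highest adjusted p = 0.078). In the blocked fits KLRD1 was at -0.22 ± 0.10 in IVP-Normal (adjusted p = 0.244) and -0.32 ± 0.15 in IVP-LOS (adjusted p = 0.284).

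NCR1 (NKp46, an activating receptor) was lower on D105 in 19 of 23 heifers. In AI it ranged from 13.0 to 41.7 CPM on D55 (median 27.4) and from 5.65 to 39.3 on D105 (median 20.4). In IVP-Normal it ranged from 11.4 to 33.5 CPM (median 22.0) and then from 9.09 to 37.2 (median 15.6), and in IVP-LOS from 14 to 52.7 (median 24.9) and then from 5.59 to 41.1 (median 22.9). All 3 groups overlapped widely between days, with the lowest values on D105 in heifers 664 and 517. The blocked log2 fold changes of NCR1 were close to each other, -0.35 ± 0.17 in AI, -0.31 ± 0.11 in IVP-Normal and -0.39 ± 0.13 in IVP-LOS, and none passed alone (adjusted p = 0.171, 0.142 and 0.173).

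KLRK1 (NKG2D, an activating receptor for stress-induced ligands) ranged from 46.8 to 155.6 CPM on D55 and from 39.0 to 152.5 on D105, and was lower on D105 in 16 of 23 heifers. Its blocked log2 fold changes were -0.16 ± 0.08 in AI, -0.11 ± 0.10 in IVP-Normal and -0.22 ± 0.15 in IVP-LOS, with no adjusted p under 0.222. KLRF1 (NKp80, an activating receptor of NK cells) ranged from 0.874 to 14.6 CPM on D55 and from 0.57 to 8.62 on D105, on counts of 13 to 355 reads. It was lower on D105 in 16 of 23 heifers, with blocked log2 fold changes of -0.20 ± 0.16, -0.20 ± 0.15 and -0.32 ± 0.16 in AI, IVP-Normal and IVP-LOS (adjusted p = 0.427, 0.473 and 0.295).

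Among the granule genes, GZMA (granzyme A, a serine protease) had the largest change of the 10 in IVP-Normal and IVP-LOS, although in IVP-LOS without heifers 604 and 664 that of KLRF1 was larger (-0.43). In IVP-Normal it ranged from 9.16 to 30.9 CPM on D55 (median 16.9) and from 5.35 to 14.1 on D105 (median 9.3). In AI it ranged from 9.95 to 47.6 CPM (median 24.4) and then from 9.36 to 26.1 (median 19.6), and in IVP-LOS from 18.2 to 46.7 (median 31.8) and then from 5.11 to 32.0 (median 19.9). The upper part of each range came down while the ranges still overlapped, and GZMA was lower on D105 in 18 of 23 heifers. In IVP-Normal the log2 fold change was -0.86 ± 0.21 with the heifer block (adjusted p = 0.0411) and -0.90 ± 0.28 without it (adjusted p = 0.139). Left-out heifers ended the GZMA call in 5 of 6 blocked fits (all but the one without 688; adjusted p between 0.0235 and 0.131). The blocked values were -0.35 ± 0.19 in AI (adjusted p = 0.239) and -0.70 ± 0.25 in IVP-LOS (adjusted p = 0.188). In IVP-LOS GZMA went without the block from -0.58 ± 0.29 with all 9 heifers to -0.32 ± 0.21 without 604 and 664 (adjusted p = 0.416 and 0.725).

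GZMK (granzyme K, a related protease) fell in AI, from 1.03 to 8.33 CPM on D55 (median 6.01) to between 0.94 and 6.32 on D105 (median 3.72). All 8 AI heifers were lower on D105, with ratios of 0.494 to 0.913, although the ranges of the 2 days overlapped. The blocked log2 fold change of GZMK was -0.48 ± 0.11 (adjusted p = 0.013), below the threshold in all 8 fits that left out a heifer, and -0.49 ± 0.35 without the block (adjusted p = 0.45). In IVP-Normal GZMK ranged from 1.53 to 6.47 CPM (median 3.02) and then from 2.52 to 7.11 (median 2.67), with 3 heifers lower and 3 higher. In IVP-LOS it ranged from 1.39 to 8.87 CPM (median 4.29) and then from 1.67 to 5.99 (median 3.35), with 5 heifers lower and 4 higher. The blocked fold changes there were near 0, at 0.04 ± 0.17 and -0.11 ± 0.22 (adjusted p = 0.922 and 0.808).

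NKG7, a protein of the granule membrane needed for granule release, fell in AI as well. It ranged from 55.4 to 86.0 CPM on D55 (median 65.1) and from 36.5 to 81.6 on D105 (median 54.6), lower in 7 of 8 heifers. The blocked log2 fold change of NKG7 was -0.36 ± 0.08 (adjusted p = 0.00976), below the threshold in 8 of 8 fits that left out a heifer, and -0.33 ± 0.15 without the block (adjusted p = 0.189). In IVP-Normal and IVP-LOS its blocked values were -0.19 ± 0.16 and -0.28 ± 0.15 (adjusted p = 0.518 and 0.355), from 32.7 to 81.5 CPM on D55 to between 32.8 and 61.5 on D105 in the former and from 34.1 to 106.3 to between 30.1 and 81.3 in the latter. PRF1 (perforin, which opens the pore) ranged from 76.1 to 259.3 CPM on D55 and from 78.6 to 193.2 on D105. It was lower on D105 in 19 of 23 heifers, IVP-Normal 6 of 6, and its blocked log2 fold changes were -0.15 ± 0.11, -0.22 ± 0.11 and -0.27 ± 0.14 in AI, IVP-Normal and IVP-LOS (adjusted p = 0.366, 0.279 and 0.31).

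TBX21 was the gene with the most regular fall. In AI it ranged from 254.6 to 475.2 CPM on D55 (median 345.1) and from 158.4 to 316.3 on D105 (median 253.9). In IVP-Normal it ranged from 269.4 to 445.9 CPM (median 402.9) and then from 223.8 to 354.7 (median 281.9), and in IVP-LOS from 206.7 to 465.9 (median 297.9) and then from 154.0 to 451.4 (median 264.6). The ranges of the 2 days overlapped in each group, but 22 of 23 heifers were lower on D105, the exception being heifer 604 with a ratio of 1.62. The log2 fold change of TBX21 with the heifer block was -0.51 ± 0.10 in AI (adjusted p = 0.00646), -0.47 ± 0.11 in IVP-Normal (adjusted p = 0.0341) and -0.23 ± 0.12 in IVP-LOS (adjusted p = 0.333). In IVP-LOS without heifers 604 and 664 the unblocked value was -0.40 ± 0.17 (adjusted p = 0.488), where all 9 gave -0.19 ± 0.19. Without the block the adjusted p of TBX21 was 0.0605 in AI and 0.109 in IVP-Normal. The AI call held in 8 of 8 fits that left out a heifer, the IVP-Normal call in 1 of 6 (the one without 633; highest adjusted p = 0.0906).

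EOMES ranged from 12 to 49.3 CPM on D55 and from 13.0 to 39.2 on D105. Its blocked log2 fold change was -0.34 ± 0.11 in AI (7 of 8 heifers lower; adjusted p = 0.0523), 0.02 ± 0.13 in IVP-Normal (3 of 6 lower; adjusted p = 0.941) and -0.10 ± 0.17 in IVP-LOS (6 of 9 lower; adjusted p = 0.772). In AI it passed only in the fit without heifer 546 (adjusted p = 0.0159).

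With all 23 heifers in 1 fit, a comparison added after the values were seen, the heifer block gave 7 of the 10 genes as lower on D105, beside 17.1% of all genes called lower and 14.6% called higher. These were NCR1 (-0.36 ± 0.09, adjusted p = 0.00243), KLRD1 (-0.35 ± 0.09, 0.00251), KLRF1 (-0.25 ± 0.09, 0.0281), PRF1 (-0.22 ± 0.08, 0.0266), GZMA (-0.62 ± 0.15, 0.00194), NKG7 (-0.29 ± 0.08, 0.0108) and TBX21 (-0.40 ± 0.07, 0.000167), each with its log2 fold change, SE and adjusted p. KLRK1, GZMK and EOMES did not pass (adjusted p = 0.0732, 0.146 and 0.191). Without the block 2 passed, GZMA and TBX21 (adjusted p = 0.00671 and 0.00818), beside 8.73% of all genes called lower. Leaving out heifers 604 and 664 again gave 7 (beside 18.1% of all genes called lower) and leaving out heifer 637, the library with the highest neutrophil marker sum, gave 6 (beside 16.0%), KLRF1 being lost (adjusted p = 0.0523).

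**Figure D2:**
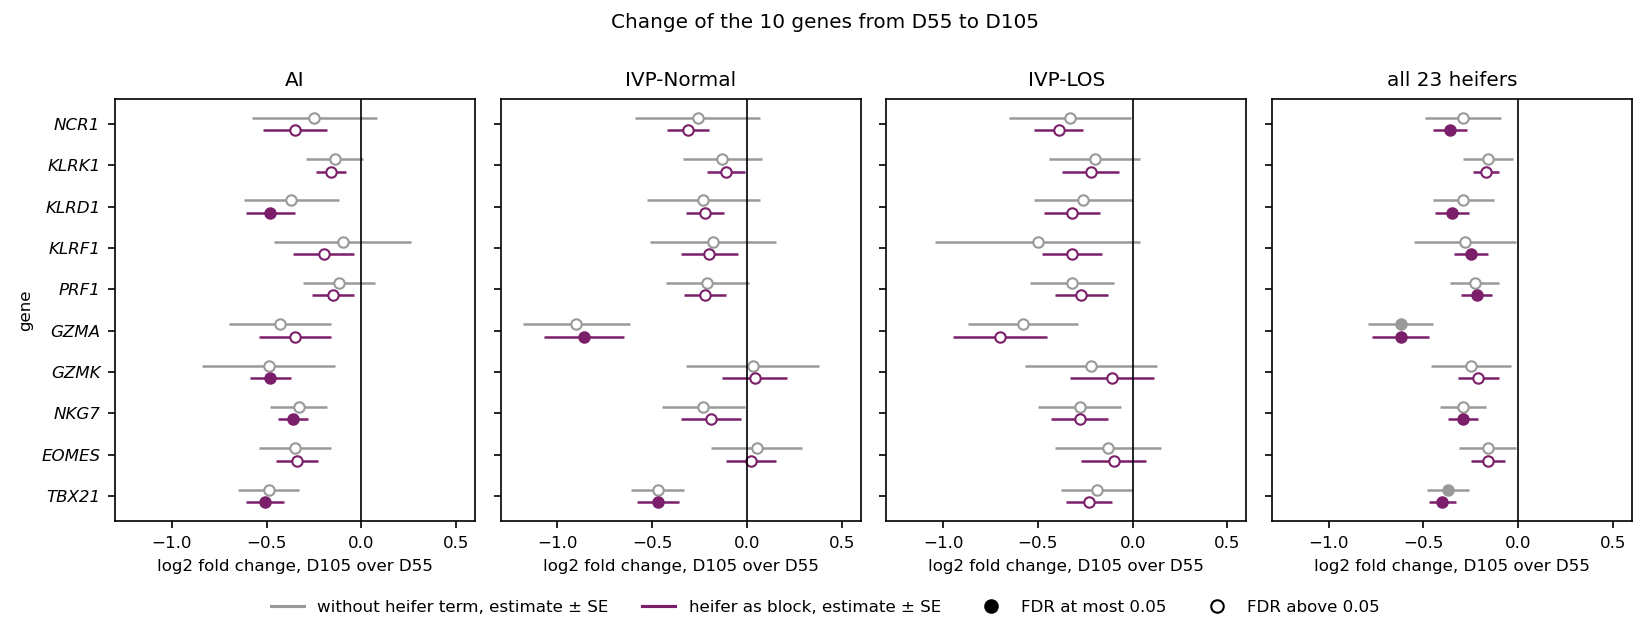
Log2 fold change from D55 to D105 of each gene (x axis, estimate ± SE) in AI, IVP-Normal, IVP-LOS and all 23 heifers, without a heifer term (grey) and with heifer as a block (purple); filled points have an adjusted p of at most 0.05. Nearly all estimates lie left of 0, and the block narrows the intervals, so that 4, 2, 0 and 7 genes are filled in purple from left to right.

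Other leukocyte classes moved between the days too. In AI the 7 neutrophil markers in the table all rose, their summed level going from 943.6 to 1972.4 CPM on D55 (median 1369.3) to between 2316.7 and 5694.1 on D105 (median 3472.6). In IVP-Normal 5 of the 7 rose (7 with the heifer block), from sums of 572.2 to 1428.4 to sums of 1322.5 to 5732.3 CPM, and in IVP-LOS 0 of the 7 passed, from sums of 689.4 to 2017.8 to sums of 574.5 to 14098.9 CPM. T cell marker sums had medians of 1688.0 and 1770.2 CPM in AI on the 2 days, 1447.5 and 1476.6 in IVP-Normal, and 1681.1 and 1601.3 in IVP-LOS. B cell marker sums had a lower median on D105 in AI and IVP-Normal, and not in IVP-LOS. They went from 3585.2 to 5690.7 CPM (median 4429.2) to between 1967.6 and 5282.0 (median 3514.1) in AI, from a median of 5716.6 to 4632.1 in IVP-Normal, and from 4381.6 to 4458.5 in IVP-LOS. With the heifer block 3 of the 10 B cell markers fell in AI, 0 passed in IVP-Normal and IVP-LOS, and 8 fell and 0 rose over all 23 heifers (median log2 fold change -0.23). The part of the neutrophil and B cell marker changes in the falls of the 10 genes was not tested. The median log2 fold change of the 10 was -0.34 in AI, -0.22 in IVP-Normal and -0.27 in IVP-LOS, against -0.02, -0.03 and 0.01 over all genes tested in the same fits.

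Whether the day change differed between groups was tested directly. None of the 10 genes and none of 16487 genes tested (0.0%) had a different day change between IVP-LOS and AI, IVP-Normal and AI, or IVP-LOS and IVP-Normal by the edgeR quasi-likelihood test, where unadjusted p fell under 0.05 for 808, 466 and 201 genes (4.9%, 2.83% and 1.22%) and for 0 of the 10 in each. DESeq2 called 1, 0 and 0 genes, none of them among the 10. The largest differences were 0.53 ± 0.56 for GZMK and -0.45 ± 0.45 for GZMA (IVP-Normal against AI, log2). These fits had no term for the heifer. With the heifer block the quasi-likelihood test again called 0 genes in each comparison. Unadjusted p then fell under 0.05 for 1734, 852 and 571 of 16487 genes and for 0 of the 10. The blocked differences were 0.53 ± 0.27 for GZMK (adjusted p = 0.86) and -0.50 ± 0.38 for GZMA (adjusted p = 0.861). The calls in AI and IVP-Normal and their absence in IVP-LOS were thus not shown to differ.

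Between the pregnancy types within a day, none of the 10 genes passed in the 6 comparisons, and neither did any other gene by the edgeR quasi-likelihood test (0.0% called in each; DESeq2 called between 1 and 43 genes and the edgeR likelihood ratio test between 1 and 11, none of them among the 10). At an unadjusted p under 0.05 there were 3, 0 and 1 of the 10 on D55 and 2, 0 and 1 on D105 for IVP-Normal against AI, IVP-LOS against AI and IVP-LOS against IVP-Normal, beside 9.92%, 7.74% and 5.19% and then 9.57%, 5.76% and 3.24% of all genes. These comparisons share their groups. On D55, 8 of the 10 genes were lower in IVP-Normal than in AI (50.3% of all genes were), and EOMES (-0.51 ± 0.21), KLRK1 (-0.44 ± 0.17) and NKG7 (-0.48 ± 0.18) had unadjusted p of 0.0286, 0.0238 and 0.0187 (adjusted p = 0.49 for each). Against IVP-Normal on that day, 9 of the 10 were higher in IVP-LOS (50.9% of all genes were), with a median log2 difference of 0.43 beside 0.00 over all genes. On D105, 8 of the 10 were lower in IVP-Normal than in AI (48.5% of all genes were), and all 10 were higher in IVP-LOS than in IVP-Normal (59.5% of all genes were).

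GZMA had the largest difference of the 10 in 3 of the 6 comparisons, IVP-Normal against AI on D105 and IVP-LOS against IVP-Normal on both days, and GZMK (-0.79) or KLRF1 (0.87 and 0.46) had it in the others. On D105 its highest level in IVP-Normal, 14.1 CPM, was below the AI median of 19.6 and the IVP-LOS median of 19.9. The AI heifer 517 and the IVP-LOS heifers 604 and 616 lay inside the IVP-Normal range, and heifer 664 lay below it. The log2 difference of GZMA between IVP-Normal and AI was -0.97 ± 0.23 (unadjusted p = 0.000647, adjusted p = 0.514 by edgeR quasi-likelihood, 0.105 by its likelihood ratio test and 0.0851 by DESeq2). IVP-LOS exceeded IVP-Normal by 1.10 ± 0.35 on D105 (adjusted p = 0.999), by 1.33 ± 0.25 without heifers 604 and 664 (adjusted p = 0.58), and by 0.81 ± 0.25 on D55 (adjusted p = 0.839). IVP-LOS and AI were close for GZMA on both days, at 0.27 ± 0.26 and 0.12 ± 0.30. On D105 IVP-Normal is also the only group of the New library set, so that group and set cannot be told apart there, while on D55 all libraries are New.

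The clearest structure in these genes was between heifers. Heifers of the same group differed from one another, over both days together, in 9 of the 10 genes (44.0% of all genes passed the same edgeR test, 52.4% at an unadjusted p under 0.05), GZMA being the exception (F = 1.93, adjusted p = 0.113). DESeq2 and the edgeR likelihood ratio test called GZMA too (adjusted p = 0.00978 and 0.0145), as they did 9160 and 9124 of 16487 genes. The strongest was KLRF1 (F = 19.3, adjusted p = 1.77e-08), followed by NCR1 (9.59, 7.41e-06), GZMK (7.99, 3.1e-05) and KLRD1 (6.88, 9.53e-05). The share of the variance left after group and day that lay between heifers (intraclass correlation of log2 levels) was 0.90 for KLRF1, 0.81 for NCR1, 0.77 for GZMK and 0.71 for KLRD1. It was 0.65 for KLRK1, 0.63 for EOMES, 0.61 for PRF1, 0.51 for TBX21, 0.46 for NKG7 and 0.29 for GZMA, beside a median of 0.36 over 16487 genes. In all 10 the SD between heifers, 0.26 to 0.70 on the log2 scale, was above the all-gene median of 0.13. The SD within heifers, 0.23 to 0.50, was above its all-gene median of 0.19 as well. Differences between heifers were not particular to these genes. The same edgeR test called 11 of 12 T cell, 10 of 10 B cell, 7 of 8 monocyte and 7 of 7 neutrophil markers. It also called 5 of 5 eosinophil, 8 of 8 platelet and 2 of 4 red cell markers, and 18 of 23 other cytotoxic receptors.

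Some animals kept their place on both days and others did not. Of the 5 highest heifers of a gene, 2 to 4 were the same on both days, and of the 5 lowest 2 to 5. Heifer 604 went from rank 1 (the highest) to 10 of 23 for KLRK1 and from 2 to 17 for GZMA, and heifer 637 from 11 to 23 for EOMES. The animals named next are mostly those that kept an outer place. KLRF1 stood at 14.6 and 8.15 CPM on D55 and D105 in heifer 604 and at 13.9 and 8.62 in heifer 637. In heifer 616 it was at 0.874 and 0.57 CPM and in heifer 648 at 1.07 and 0.805, so the same animals were the 2 highest and the 2 lowest on both days. GZMK was lowest on both days in heifer 648 (1.03 and 0.94 CPM), and KLRD1 was highest on both in heifer 512 (72.7 and 73.7 CPM). Heifer 590 (AI) was among the 5 highest of 23 on both days for 6 of the 10 genes, heifer 512 (IVP-LOS) for 5 and heifer 557 (IVP-LOS) for 4. Heifer 688 (IVP-Normal) was among the 5 lowest on both days for 6 genes, heifer 519 (IVP-Normal) for 5 and heifer 606 (AI) for 4. Heifer 663 went against the general fall: its D105 to D55 ratio was the highest of the 23 for NCR1, KLRK1, KLRD1, KLRF1, PRF1, NKG7 and EOMES, at 1.19 to 2.22.

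**Figure D3:**
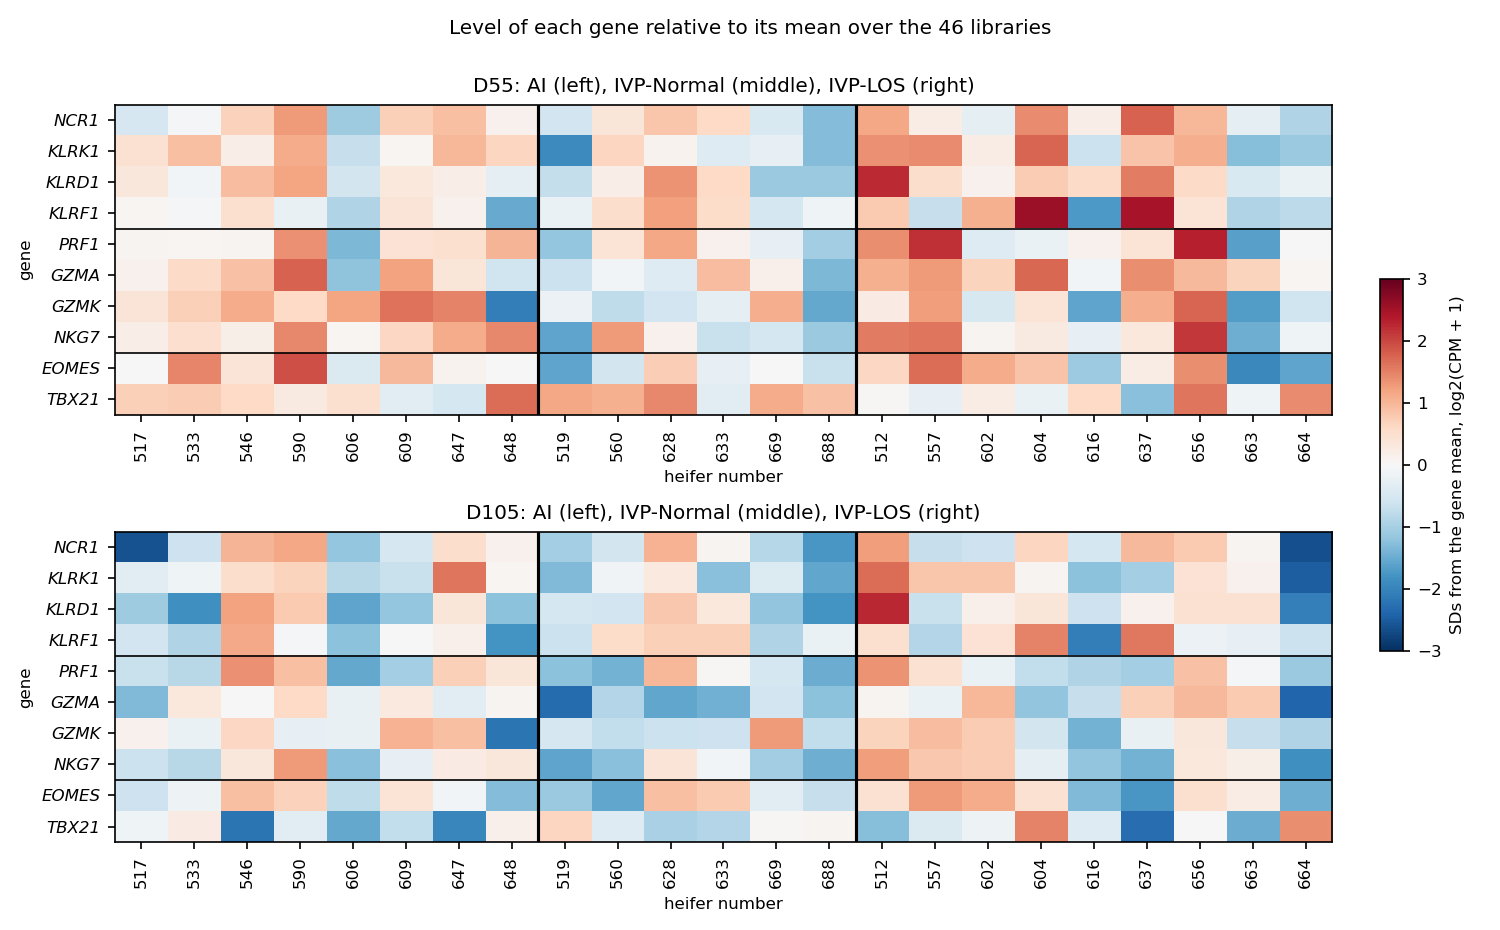
Level of each gene (rows) in each heifer (columns, by group) on D55 and D105, coloured by its distance from the gene's mean over the 46 libraries in SDs of log2(CPM + 1). Columns such as 590 and 512 stay mostly red and 688 and 519 stay mostly blue in both panels, and the TBX21 row follows other columns than the 9 rows above it.

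Heifers 604 and 664, with the 2 largest fetuses, were compared with the other 21, a contrast that the study also made. The paper focused on this pair partly because its clustering of these same D105 transcriptomes set them apart. The D105 p-values of the contrast are therefore not independent of how the pair was chosen. On D55 none of the 10 genes differed (adjusted p of 0.947 or more, 0 of 10 at an unadjusted p under 0.05 and none by DESeq2 or the likelihood ratio test; 0.0179% of all genes passed, and the unadjusted p was under 0.05 for 4.72%). On D105 TBX21 was higher in both, at 451.4 CPM in 604 and 437.6 in 664, against 154.0 to 354.7 in the others (mean 250.8 ± 56.2 SD, n = 21). It was the only one of the 10 with both heifers outside the range of the others, and its log2 difference was 0.83 ± 0.22 (adjusted p = 0.0126, beside 21.1% of all genes called and 37.4% at an unadjusted p under 0.05, where the 10 had 2). With 664 alone the difference was 0.81 (adjusted p = 0.111) and with 604 alone 0.84 (adjusted p = 0.112), fits in which the lone library is assumed to vary like the other group. The size was thus near that of the pair, and neither passed. Within the BACKUP libraries it was 0.90 (adjusted p = 0.00836), where 29.9% of all genes were called, and against the other IVP-LOS heifers 0.90 (adjusted p = 0.0342), where 9.05% were. The 2 animals reached this level by different routes, 604 from 279.3 CPM on D55 and 664 from 442.4. The study scaled its edgeR counts otherwise and kept the genes that edgeR and DESeq2 both called. Its D105 list for the pair did not name TBX21.

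GZMA was low in both heifers on D105, at 10 CPM in 604 and 5.11 in 664, where the others ranged from 5.35 to 32.0 (mean 18.1 ± 7.94 SD). In 604 it had been 46.7 CPM on D55, the second highest of 23. The log2 difference of GZMA was -1.26 ± 0.53 (adjusted p = 0.088), and it passed within the BACKUP libraries (-1.50 ± 0.39, adjusted p = 0.0104) and against the other IVP-LOS heifers (-1.69 ± 0.41, adjusted p = 0.0382), beside the same 29.9% and 9.05% of all genes. Heifer 664 was below all 21 others on D105 for NCR1 (5.59 CPM), KLRK1 (39.0), KLRD1 (12.6), GZMA (5.11) and NKG7 (30.1), while 604 was inside their range for each of these. The fit treats the pair as 1 group, and its log2 differences for NCR1, KLRK1 and KLRD1 were -0.32 ± 0.56, -0.47 ± 0.34 and -0.32 ± 0.48 (adjusted p = 0.7, 0.323 and 0.648).

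Both libraries stood apart in other ways on D105. Reads outside the NCBI genes were 38.6% of the reads counted in 604 and 36.7% in 664, against 24.3 to 31.1% in the other 21, and 26.2 and 24.3% on D55. By the Ensembl genes the order was reversed on D105, at 25.7% in 604 and 26.5% in 664, against 29.0 to 33.7% in the other 21. Neutrophil marker sums were 615.3 and 574.5 CPM, against 1132.0 to 14098.9, and monocyte marker sums 219.2 and 406.5 CPM, against 614.8 to 6356.8. B cell marker sums were 6066.4 and 7438.0 CPM, against 1967.6 to 7020.7. T cell sums were 1550.8 and 1153.5 CPM, against 1149.7 to 2382.5, and platelet sums 5854.6 and 784.0 CPM, against 256.5 to 1534.6. The part of these differences in the levels of TBX21 and GZMA was not tested.

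**Figure D4:**
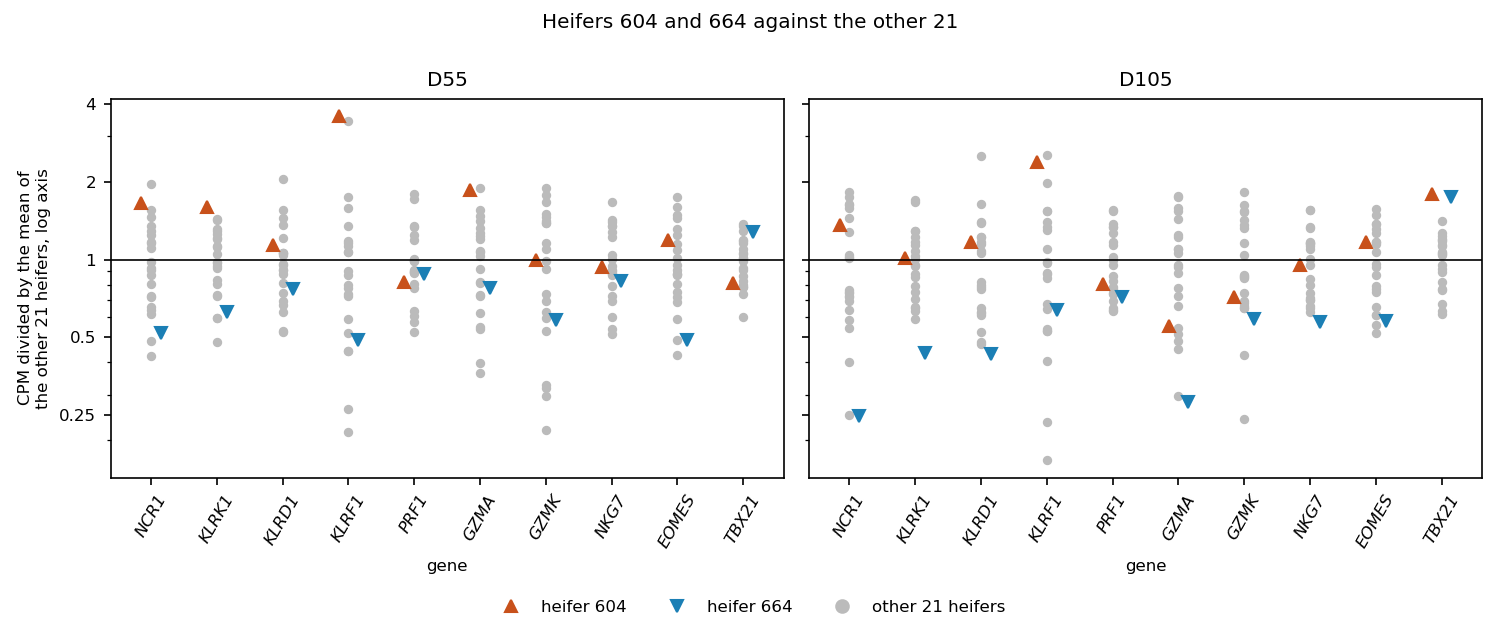
CPM of each gene divided by the mean of the other 21 heifers (log axis) on D55 (left) and D105 (right), with heifer 604 as upward and 664 as downward triangles and the others as grey points. On D105 both triangles lie above every grey point for TBX21 only, and 664 lies below every grey point for NCR1, KLRK1, KLRD1, GZMA and NKG7.

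Over the 46 libraries, 9 of the 10 genes varied together, some closely and some loosely, and TBX21 did not. Pearson's r of the log2 level with the mean of the other 9 genes was 0.828 for KLRK1, 0.824 for NKG7, 0.779 for PRF1, 0.753 for KLRD1, 0.75 for EOMES, 0.742 for NCR1 and 0.609 for GZMA. It was lower for GZMK (0.451) and KLRF1 (0.423) and was -0.204 for TBX21, with -0.366 on D55 and -0.476 on D105. The closest pairs were NKG7 and PRF1 (0.871), KLRK1 and NKG7 (0.842), and NCR1 and KLRD1 (0.833). With TBX21 left out, the loosest pair was KLRF1 and NKG7 (0.191). These r describe 46 libraries of 23 animals that share day, library set and cell makeup, and no p is given for them.

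By the rule for likeness, the 10 genes of 16477 others closest to the mean of the cytotoxic genes included SAMD3 (r = 0.906), LOC101905403 (0.873), CD96 (0.854), ATP6V0A4 (0.847), RUNX3 (0.84), OASL (0.834), PDGFB (0.83), NID2 (0.823) and IDO1 (0.813). CD96 is an NK and T cell receptor, and RUNX3 a transcription factor of cytotoxic lymphocytes. TBX21 was closest to LBH (0.92), ST6GALNAC2 (0.92), BATF (0.908), UBTF (0.903) and PTPRCAP (0.891). Its r was above 0 with 9 of 10 B cell markers (median 0.794, highest CD79A at 0.843, lowest BLK at -0.0135). It was below 0 with all 8 monocyte markers (median -0.624), all 7 neutrophil markers (median -0.66) and 11 of 12 T cell markers (median -0.318). For KLRK1 the T cell markers had a median r of 0.694 and the B cell markers -0.425, and for NKG7 0.629 and -0.294. T-bet is also made by some B cells and helper T cells, and which cells gave the TBX21 reads was not measured.

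**Figure D5:**
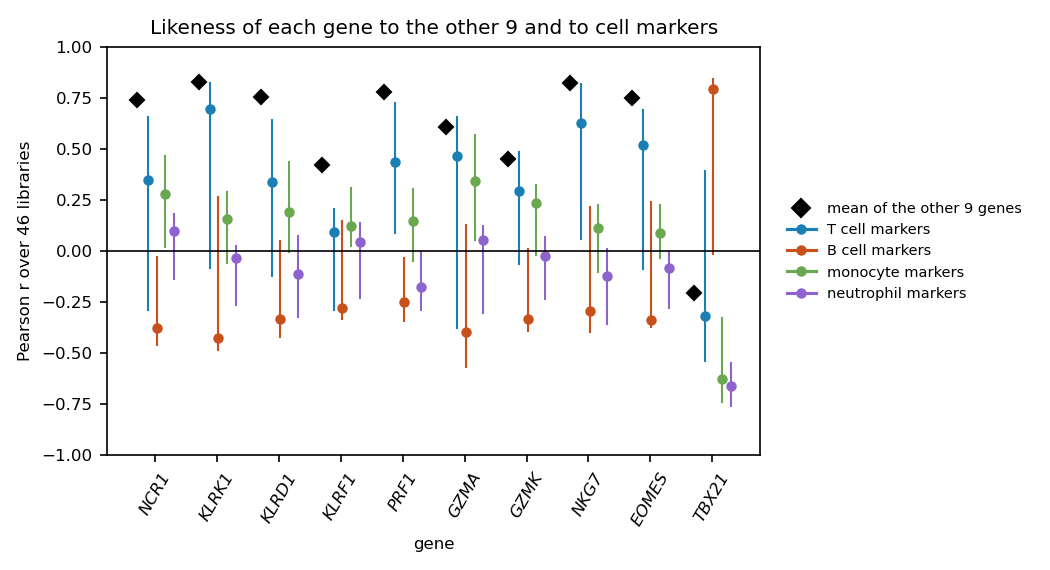
Pearson's r over 46 libraries of each gene with the mean of the other 9 genes (diamonds) and with the T cell, B cell, monocyte and neutrophil markers (dot, median; line, lowest to highest). TBX21 is the one gene whose diamond lies below 0 and whose B cell dot, at 0.794, lies above 0.

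Some of the 10 genes lie close together. In the RefSeq table of assembly ARS-UCD2.0, a later build than the one the reads were counted on and used here only for gene order, KLRK1 and KLRD1 are neighbours with 0 protein-coding genes between them in the NK receptor cluster, and GZMA and GZMK are separated by 1, the paralog named gzmA. Their r were 0.658 and 0.415, below that of pairs on other loci such as KLRK1 and NKG7 (0.842). GZMK was closest to ESM1 (r = 0.765), its direct neighbour on the other side. KLRF1 was closest to LOC100296778 (0.813), 25 protein-coding genes away, and KLRD1, after NCR1, to LOC100848575 (0.818), 2 away. Reads of near-identical copies can be lost or split in counting. Whether gzmA (0.00 to 0.902 CPM) is such a copy of GZMA, or KLRF2 (0.00 to 4.92 CPM) of KLRF1, was not checked. The levels of GZMA and KLRF1 may therefore be less certain. GZMA also lies within the span of CDC20B.

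In the rest of the cytotoxic pathway, more genes rose than fell in AI, as over all genes (7.21% higher and 2.73% lower). The counts first given are without the heifer block, unlike the falls of the 10 genes above. Of 24 other receptors found in the table (23 tested), 1 rose on D105, SLAMF6 (log2 0.42 ± 0.11, adjusted p = 0.0175), and 0 fell. Of 11 signalling adaptors and kinases 1 rose (TYROBP, 0.77 ± 0.20). Of 9 other granule and death-ligand genes 2 rose, SRGN (serglycin, the granule proteoglycan, 0.96 ± 0.11) and TNFSF10 (TRAIL, 0.61 ± 0.18). Granzyme B (GZMB) was at 3.34 ± 4.59 CPM on D55 and 8.44 ± 3.76 on D105 (SD, n = 8; 1.35 ± 0.60, adjusted p = 0.19).

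Of 10 genes of granule release 1 rose (UNC13D, 0.27 ± 0.05), and of 11 other transcription factors 1 rose (NFIL3, needed for NK cell development, 2.19 ± 0.31). Among 16 cytokine and trafficking genes (15 tested) 2 rose, the receptor chains IL18RAP (1.48 ± 0.24) and IL15RA (1.21 ± 0.23), and 1 fell, S1PR5 (-0.59 ± 0.16, adjusted p = 0.0221), which guides NK cells out of bone marrow and lymph nodes. TYROBP, SRGN, NFIL3 and IL18RAP are also made by neutrophils or monocytes. The medians over these 6 lists lay between -0.11 and 0.05 (log2), beside -0.34 for the 10 genes. With the heifer block in AI, where 10.2% of all genes rose and 6.89% fell, the receptors had 1 higher and 0 lower, the adaptors 2 and 0, the granule genes 3 and 0, granule release 3 and 0, the transcription factors 2 and 1, and the cytokine and trafficking genes 2 and 3. Over all 23 heifers with the block, where 14.6% of all genes rose and 17.1% fell, the receptors had 3 higher and 5 lower, the adaptors 1 and 2, the granule genes 2 and 0, granule release 3 and 2, the transcription factors 3 and 4, and the cytokine and trafficking genes 2 and 3.

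Of the marker lists in AI without the block, 1 of 12 T cell markers rose (CD28, 0.47 ± 0.12), 0 of 10 B cell markers passed, and 2 of 7 monocyte markers tested rose (CD68, 1.14, and CD14, 1.01). The neutrophil markers rose 7 of 7, among them MMP9 (4.40), CXCR2 (4.24) and CXCR1 (5.26), and 2 of 4 eosinophil markers tested rose (SIGLEC8, 1.82, and ALOX15, 2.99). None of 7 platelet markers and 3 red cell markers tested passed. With the heifer block 2 T cell and 4 monocyte markers rose, 3 B cell markers and 1 red cell marker fell, and the neutrophil, eosinophil and platelet counts stood as before.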

How the data were processed

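RNA was sequenced from maternal leukocytes of 23 heifers on D55 and D105 (46 libraries). Per the labels and methods, the authors trimmed reads with SolexaQA++, aligned them to ARS-UCD1.2 with HISAT2 2.1.0 and counted them per NCBI RefSeq gene with HTSeq, and deposited raw read counts with no normalization. A second deposited table holds Ensembl gene counts. Its identifiers could not be paired with symbols, so it served for counts of genes only. Each table had 5 summary lines, left out of library sizes, and 0 columns of no sample. In the NCBI table, reads outside annotated genes took 23.6 to 38.6% of the reads counted.

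Counts were tested with edgeR 4.0.16 in R 4.3.3 (quasi-likelihood F-test, TMM scaling, filterByExpr with a minimum count of 10) in the compared groups alone. P-values were adjusted by Benjamini-Hochberg over all genes tested, and called at 0.05. The day changes were compared, and the heifers of a group tested together, in 1 fit of all libraries. SE is the log2 fold change divided by the square root of F. Levels are TMM-scaled CPM, and correlations used log2(CPM + 1). DESeq2 1.42.0 and the settings in the closing section were alternatives. The scripts were tested on simulated counts, with the same spread of a gene in all groups and no heifer block. At a log2 change of 0.5, the day fits recovered 23.5% of changed genes in AI, 9% in IVP-Normal and 37.5% in IVP-LOS. The share was 27.5% for IVP-LOS against AI on D105 and 9% for heifers 604 and 664 on D105. At a log2 change of 1, the day fits recovered 67%, 55.5% and 72.5%. Changes near 0.5 would thus often go uncalled.

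The labels number the heifers, so both libraries of an animal are paired. Deviations from group means correlated at 0.53 on average within heifers (lowest 0.28) and at -0.023 between heifers, and values with heifer as a replicate block are given beside a printed call or count that they change. Each heifer is a separate animal with 1 library a day.

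The 10 genes and all lists were chosen with earlier results of these data known. The rule for named genes was the 10 members, up to 4 genes with the smallest p in AI from each list (other cytotoxic receptors, adaptors, granule, granule release, transcription factor and cytokine genes, and T cell, B cell, monocyte, neutrophil, eosinophil, platelet and red cell markers), the 10 most alike genes and the 5 most alike to each member. The lists held 145 other genes, of which 7 symbols were not matched. Gene order came from the RefSeq table of ARS-UCD2.0. Of the genes that the rules name, 2 are not reported here.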

Additional observations from a re-analysis of the deposited data

Results flagged for a closer look

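Within 60 sets of libraries (10 genes, 3 groups, 2 days) the highest and lowest animals were compared with the rest of their group. In 2 of the 60 an animal stood far from the next value. Chance gives about 1 in 20, so 2 of 60 is no more than chance would give. KLRD1 in heifer 512 of IVP-LOS on D105 was at 73.7 CPM, the next animal being at 35.7, a gap of 0.621 of the range of 9 animals. The same heifer had 72.7 CPM on D55. GZMK in heifer 669 of IVP-Normal on D105 was at 7.11 CPM, the next being at 2.89, a gap of 0.919 of the range of 6 animals. That heifer had 6.47 CPM on D55, also the highest of its group.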

How the results depend on the processing

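Of 950 values of the 10 genes under alternatives (other tests, scalings, filters, the heifer block and left-out heifers), 864 kept direction and side of the threshold, 59 newly passed it, 2 lost it and 25 changed sign. Genes called on D105 against D55 with heifer as a replicate block were 2603 in AI (1837 to 2747 when each heifer was left out; 4 of the 10 genes, 3 to 5), 838 in IVP-Normal (445 to 1043; 2, then 0 to 1), 162 in IVP-LOS and, added after seeing the data like the left-out heifers here, 5229 over all 23 (7 of the 10; 5498 and 7 without 604 and 664, 4908 and 6 without 637). The block changed no other call of the 10. IVP-Normal had 613 genes by the likelihood ratio test and 748 by DESeq2 (2 of the 10), AI 1 of the 10 by these tests and by upper-quartile scaling. IVP-LOS had 227 and 336 genes by the 2 tests, 14 with Ensembl counts, 12 without 604 and 664 and 24 without 637. Where the quasi-likelihood test called 0 genes between groups, the likelihood ratio test called 3, 1 and 1 on D55 and 3, 11 and 4 on D105 (IVP-Normal against AI, IVP-LOS against AI, IVP-LOS against IVP-Normal), DESeq2 15, 1, 3, 3, 43 and 13, no expression filter 1 (IVP-LOS against IVP-Normal, D55), and DESeq2 1 for the day change of IVP-LOS against AI. For heifers 604 and 664 on D55, 5 genes passed by the likelihood ratio test, 8 by DESeq2, 6 without a filter, 6 with Ensembl counts, 0 to 9 with either heifer left out and 0 against the other IVP-LOS heifers. On D105 there were 567 to 725 with either left out (0 of the 10) and 1466 against the other IVP-LOS heifers (2 of the 10, as within the BACKUP libraries).

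Signs changed mostly near 0 or where 1 heifer was left out, none of these values being called. For the day in IVP-Normal, the blocked value ranged from -0.08 to 0.13 for EOMES and from -0.09 to 0.12 for GZMK over the left-out heifers. The day change of IVP-Normal against AI became 0.01 for KLRF1 with the replicate block and -0.00055 for NCR1 with upper-quartile scaling. On D105 without 604 and 664, IVP-LOS against AI was 0.03 for GZMK, 0.09 for KLRK1, 0.06 for PRF1 and -0.03 for TBX21, and IVP-LOS against IVP-Normal -0.23 for TBX21. NKG7 was -0.0018 for IVP-LOS against AI without a filter. The members of the pair differed: with 664 and then 604 alone, the D55 values were -0.37 and 0.91 for GZMA, -1.03 and 1.87 for KLRF1, -0.67 and 0.70 for KLRK1, -0.95 and 0.74 for NCR1, -1.04 and 0.27 for EOMES, -0.77 and 0.01 for GZMK, -0.39 and 0.20 for KLRD1, and 0.36 and -0.28 for TBX21, and against the other IVP-LOS heifers NCR1 was -0.07. On D105 they were -0.63 and 1.25 for KLRF1, -0.78 and 0.22 for EOMES, -1.21 and 0.23 for KLRD1, -1.19 and 0.01 for KLRK1, and -2.0 and 0.43 for NCR1. The cause of these changes was not tested. KLRF1 and GZMK rest on as few as 13 and 21 reads in a library, which limits their precision.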
